A study of Mus musculus with 12 samples.

Results

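The 47 genes described here encode the constitutive proteasome and the proteins that cap, inhibit or assemble it. They are the rows of the deposited table of 20457 mouse genes whose symbol starts with Psma, Psmb, Psmc, Psmd, Psme, Psmf or Psmg followed by a digit. The 3 interferon-inducible catalytic genes Psmb8, Psmb9 and Psmb10 were left out, as were 2 pseudogene rows. The rule reads symbols and no measured value. They fall by textbook role into 7 alpha and 7 beta subunits of the core, 6 ATPases and 3 other subunits of the base, 8 lid subunits, 3 base and 4 core assembly chaperones, and 5 caps or inhibitors. A further 2 are tissue-restricted core subunits (Psma8, Psmb11). Psmd14, the deubiquitinating subunit of the lid, has a second identifier in the table, and Psmc3ip, a recombination cofactor, entered by its name alone and is no proteasome subunit.

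The 26S proteasome degrades proteins tagged with ubiquitin chains. Its core is a barrel of stacked rings, with alpha subunits at the gates and proteolytic beta subunits inside, and a regulatory particle of base and lid binds, unfolds and deubiquitinates the substrate. Cells that lose proteasome activity are known to raise the genes of the whole complex together through the transcription factor NRF1 (gene Nfe2l1), and hematopoietic stem cells are known for a low rate of protein synthesis.

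The study sorted hematopoietic stem cells from bone marrow of C57BL/6 mice aged 2 months (young) or 28 months (old) into cells without and with the cytokine receptor subunit IL27RA. Each of the 4 groups, young IL27RA−, young IL27RA+, old IL27RA− and old IL27RA+, had 3 libraries. A library held 50 cells collected by FACS and amplified by Smart-Seq2, which copies whole transcripts and adds no molecular identifiers. The sources used here do not give the gates that define the stem cells. For old IL27RA− replicate 1 the title and the age say old, but 1 other label says young. Whether different mice gave the libraries of a group is not stated, so p-values measure only how these samples vary, and that variation may be technical. In pooled cells, fewer cells of a type and less RNA per cell cannot be told apart.

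Libraries held 11.7 to 24.2 M reads in genes, and a floor of 3 reads was worth 1.93 to 3.77 normalized counts (reads divided by the library's size factor). Because amplified reads are not independent molecules, this floor covers counting error only. All 11 stem cell markers, among them Kit and Procr, were detected, with summed levels of 59511 to 76407 normalized counts in young, 69354 to 72043 in old IL27RA− and 53575 to 58437 in old IL27RA+ libraries. Macrophage markers summed to 11076 to 15208 in IL27RA− and 15325 to 25475 in IL27RA+ libraries, with 13 of 13 measured markers positive and 4 called in the averaged IL27RA comparison. Cell cycle genes summed to 4453 to 6256 in old IL27RA− against 15761 to 23991 in old IL27RA+ libraries. Their sums were 9926 to 16480.5 in young IL27RA− and 7829 to 18595 in young IL27RA+ libraries. Megakaryocyte markers summed to 3695 to 7294 in young and 10716 to 21132 in old libraries, and granulocyte and monocyte markers to 3646 to 5485 and 7701 to 13163, with 2 of 5 tested markers positive and 1 called in the averaged age comparison. B and plasma cell markers reached 373983 in old IL27RA− replicate 1 and at most 1448 elsewhere. No marker in the table was without a read in all 12 libraries. The part of other cell types and of cycling cells in the proteasome values was not tested.

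Promoters of 38 of the 46 member symbols were matched in the RefSeq table (mouse build GRCm38.p6), each window running from 250 bases before to 50 after the start of the gene. The letters GCGC, any base and TGCGC, the element type of the nuclear respiratory factor NRF1 (a different protein from the product of Nfe2l1), were searched on both strands. The element was found in promoters of 7 of 38 members (18.4%) and of 5.19% of all 27025 genes with a window of this length. The sequences carrying it come from 3 alpha subunits, 2 ATPases, the lid enzyme Psmd14 and the core chaperone Psmg1. They are printed 5′ to 3′ on the strand of the gene, with the element in capitals. In Psma3, Psma4 and Psmc4 the match lies on the opposite strand, and in Psma2 and Psmg1 on both:
Psma2, chr13:14613105-14613134, plus strand: ggcccctcttGCGCATGCGCaagggtcaaa
Psma3, chr12:70974535-70974564, plus strand: tatggtttctGCGCACGCGCgctctctgct
Psma4, chr9:54950788-54950817, plus strand: tcgcagtcctGCGCACGCGCgggagccata
Psmc4, chr7:28050242-28050271, minus strand: aagagttactGCGCACGCGCaacatccttg
Psmc5, chr11:106256126-106256155, plus strand: tttcgcctccGCGCCTGCGCgatagagtga
Psmd14, chr2:61711604-61711633, plus strand: caggcggcctGCGCGTGCGCtgtgtgctcc
Psmg1, chr16:95990911-95990940, minus strand: actgcgggccggcGCGCATGCGCtgtctgg

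TGACNNNGC, the antioxidant response type of element that the products of Nfe2l1 and Nfe2l2 are known to bind, was found in 6 of 38 member promoters (15.8%) and in 3781 of all 27025 promoters. The catalytic subunits Psmb5 and Psmb6 each held 1 copy, shown here with the element in capitals because these genes carry the proteolytic sites. The other 4 were Psmc6, Psmd9, Psmd12 and Psme4.
Psmb5, chr14:54618023-54618052, minus strand: cgtgaagttgTGACGTCGCggcgttgccag
Psmb6, chr11:70525338-70525367, plus strand: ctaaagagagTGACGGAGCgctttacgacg

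CCAAT, the NF-Y box, was found in 14 of 38 member promoters (36.8%) and in 41.1% of all. The cyclic AMP response element TGACGTCA was in 0 of 38 and in 2.03% of all. These matches are descriptions of the letters and not binding sites. No overlap between the element types was removed, and no promoter entry matched Psma8, Psmb1, Psmb2, Psmb7, Psmc3, Psmd3, Psmd7 or Psmg2.

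The members took 0.377% to 0.519% of the reads of a library. By group this share was 0.419% ± 0.056 (SD, n = 3) in young IL27RA−, 0.430% ± 0.037 in young IL27RA+, 0.442% ± 0.016 in old IL27RA− and 0.495% ± 0.027 in old IL27RA+ libraries. The young and old ranges overlapped. Young IL27RA− replicate 1 held 0.482% and young IL27RA+ replicate 1 0.465%, against 0.425% in old IL27RA− replicate 1. Of the 47 rows, 46 passed the filter of at least 10 normalized counts in at least 3 of the 12 libraries. The 1 that failed was Psmb11, the beta subunit of the thymus proteasome, with 2 reads in all. It lies beside Psmb5 on chromosome 14 (54621433 to 54629556, GRCm38), which held 3081 reads.

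Subunits of 1 particle, which are needed in equal numbers, differed widely in measured mRNA level per length. Levels are compared here as normalized counts per kilobase of the principal transcript, averaged over the 12 libraries. Such levels and their ranges depend on how reads fitting more than 1 place were counted, which is not given. They also depend on the length used. Per kilobase of all exonic bases, Psmb1 stood at 110 in place of 214. Before division by length, Psma2 had a mean of 1183 normalized counts, above the 817 of Psma6. In the alpha ring they ran from 406 for Psma2 to 3131 for Psma1, a 7.70-fold range with a median of 1192. The beta ring ran from 214 for Psmb1 to 3311 for Psmb2, a 15.5-fold range with a median of 516. The 3 catalytic subunits stood at 272 for Psmb5 (chymotrypsin-like activity), 516 for Psmb6 (caspase-like) and 2044 for Psmb7 (trypsin-like). The libraries' ranges of Psmb5 (133 to 577) and Psmb6 (257 to 894) overlapped, and Psmb7 (1555 to 2951) lay above both.

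In the base, the ATPases ran from 356 for Psmc2 to 1316 for Psmc1, the narrowest range of the subunit lists at 3.70-fold. Among its other subunits, Psmd4, a ubiquitin receptor, was the highest of all members at 3822, against 464 for the scaffold Psmd1. The lid ran from 254 for Psmd11 to 2905 for Psmd8, and Psmd14 stood at 2645. Base chaperones lay close together, from 406 for Psmd5 to 692 for Psmd10, whereas the core chaperones ran from 255 for Psmg2 to 2274 for Psmg1. Of the caps, Psme4 (PA200) was lowest at 191 and Psme2 (a subunit of the PA28 cap) highest at 1243. Psma8, the alpha subunit of the testis proteasome, stood at 376, just below Psma2. Its sequence is close to that of Psma7, and how reads fitting both were counted is not given, so its level is uncertain.

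**Figure D1:**
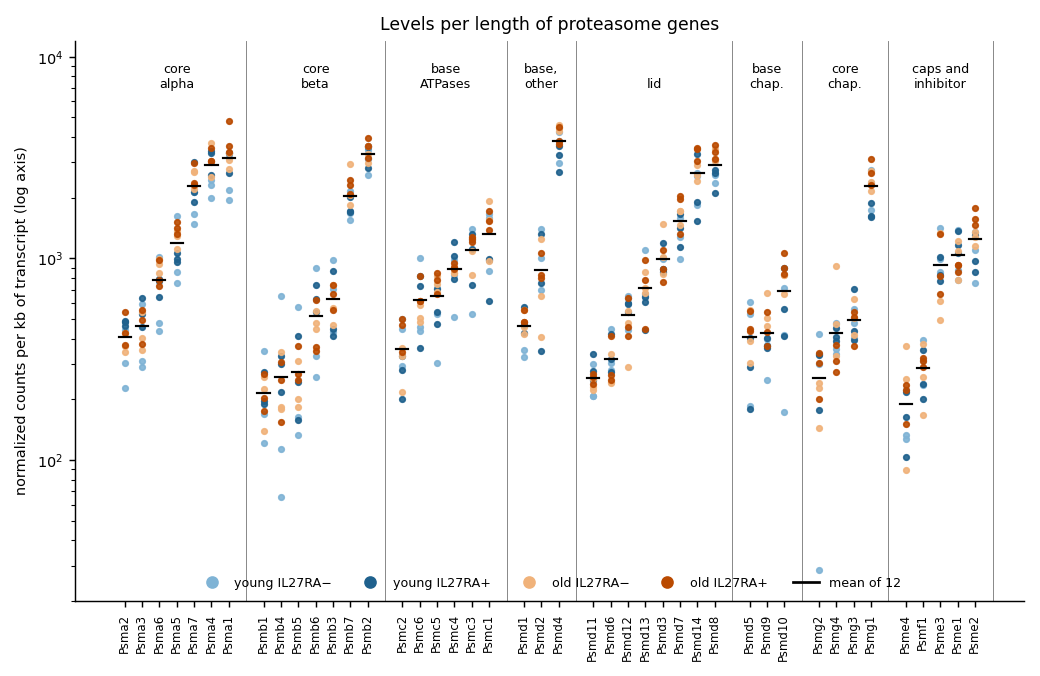
Normalized counts per kilobase of principal transcript (log axis) for the subunits, chaperones and caps, ordered by mean within each role; points are the 12 libraries coloured by group and bars are means. Means differ between genes of the same role, with Psmb1 at 214 and Psmb2 at 3311 in the beta ring.

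The 3 inducible catalytic genes were expressed as well. Per kilobase, Psmb8 stood at a median of 1.51 times Psmb5 (0.80 to 2.30 over the 12 libraries) and Psmb9 at 3.50 times Psmb6 (1.49 to 5.86), while Psmb10 stood at 0.55 times Psmb7 (0.45 to 0.87).

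The spread between the libraries of a group, pooled over the 4 groups, had a median SD of 0.36 (log2) over the 46 tested members. It was 0.71 over all 14723 genes tested, many of which are expressed at lower levels than the members. Psmd8 (0.14), Psmb2 (0.18), Psmd4 (0.19) and Psmd11 (0.19) had the smallest spread. The alpha ring had a median of 0.28 and the beta ring 0.50. The beta ring varied most among the young IL27RA− libraries, where the median SD was 0.77 against 0.30 to 0.35 in the other groups. This group also varied most over all genes tested (0.68 against 0.45 to 0.58) and in the alpha ring (0.47 against 0.15 to 0.22). The caps and inhibitor went the other way, with 0.43 in young and 0.58 in old IL27RA− libraries.

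In the young IL27RA− libraries most core genes stood high in replicate 1 and low in replicates 2 and 3. Of 14 core genes, 10, 1 and 2 were above their own mean in these replicates. Relative to its 12-library mean, the median core subunit stood at 0.31 (log2) in replicate 1, −0.63 in replicate 2 and −0.50 in replicate 3. For the beta ring alone these medians were 0.76, −0.75 and −0.34, the highest and the lowest of all 12 libraries being replicates 1 and 2. Psmb4, a non-catalytic beta subunit, shows it most plainly at 769, 77.3 and 135 normalized counts in young IL27RA− replicates 1, 2 and 3, against 182 to 405 in the other 9 libraries. It was singled out after its values were seen. The pattern was not limited to the core: the base ATPases had medians of 0.39, −0.65 and 0.07 in the same libraries. The lid medians lay closer together, at 0.08, −0.21 and −0.15. Over all 14723 genes tested the medians were 0.06, −0.06 and 0.01, but a median of few genes varies more than one of many. Young IL27RA− replicate 2 also had the lowest weight (0.434) of the 12 libraries in limma's estimate of library quality. Why these libraries differ was not tested.

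**Figure D2:**
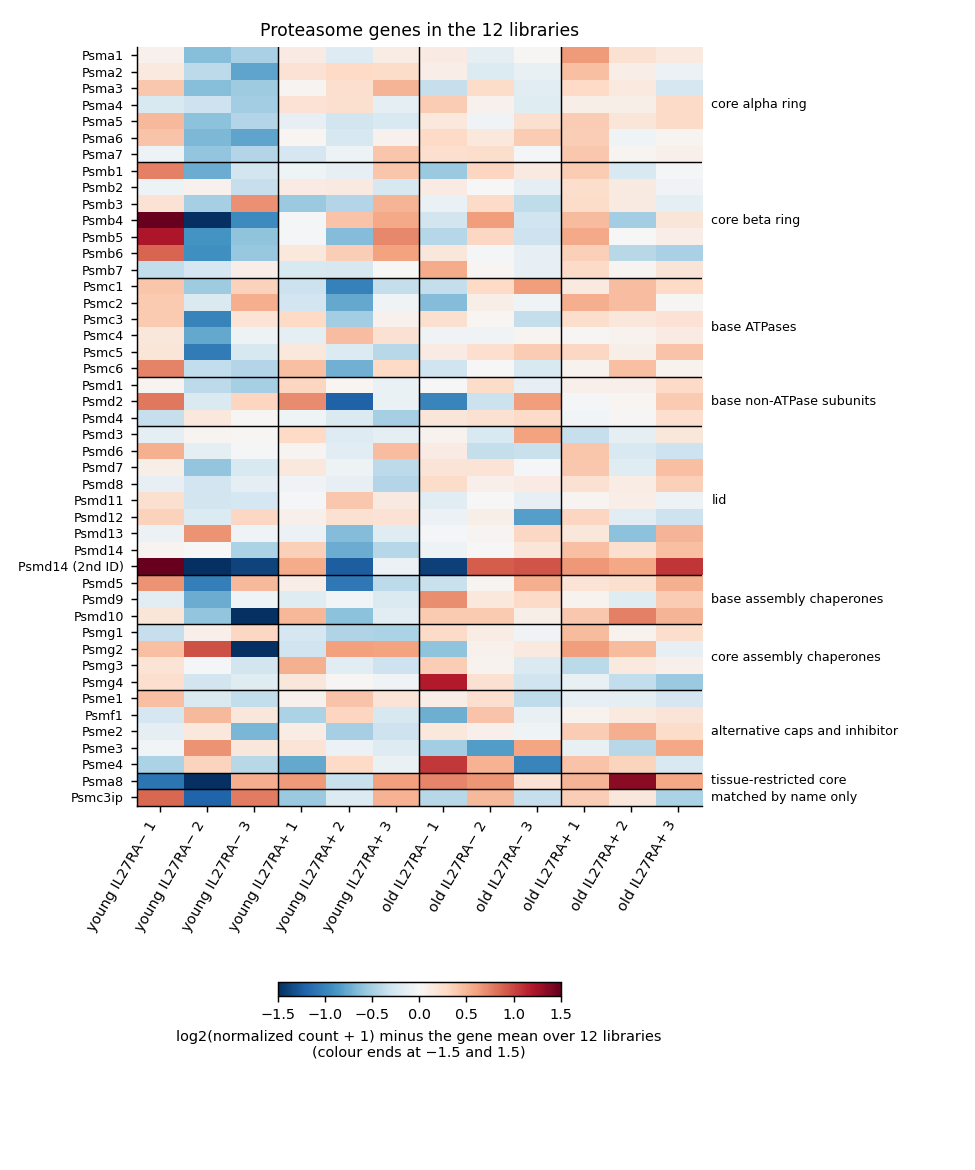
Log2(normalized count + 1) of the 46 tested members minus the gene's mean over the 12 libraries (colour, ending at −1.5 and 1.5), with genes grouped by role and libraries by group. Young IL27RA− replicate 1 is high and replicates 2 and 3 are low in most core genes, and the old IL27RA+ libraries are mostly above the mean.

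**Figure D3:**
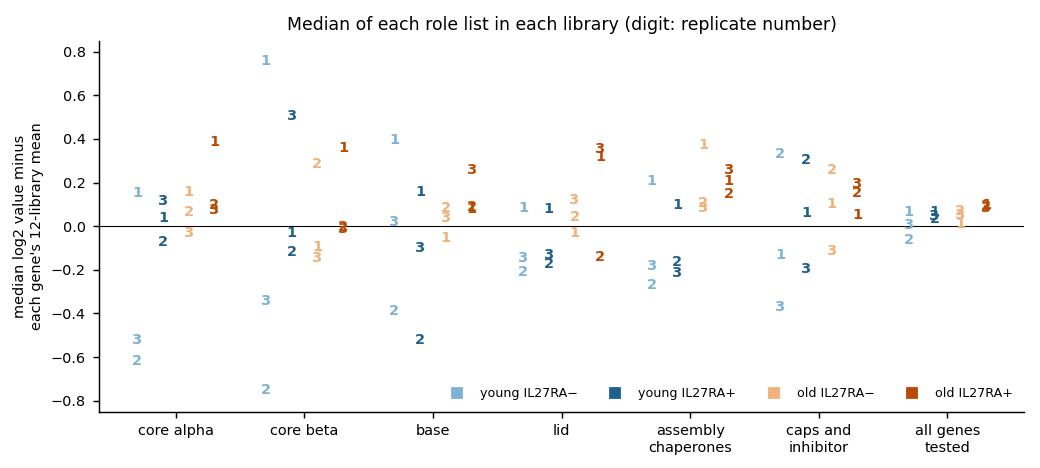
Median over each role list of the log2 value minus the gene's 12-library mean, with 1 digit per library giving its replicate number. The beta ring median, of 7 genes, spans −0.75 to 0.76 in young IL27RA− libraries. The median of all 14723 genes tested stays between −0.06 and 0.10, but a median of few genes varies more, so these ranges are not alike.

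The first comparison set old against young cells, averaged over the 2 sorted fractions. Differences are of log2(normalized count + 1), and the test was limma, a linear model fitted to all 14723 genes past the filter with Benjamini-Hochberg adjustment over them. No member was called at an adjusted p under 0.05 (0 of 46), where 1.88% of all genes were called. At an unadjusted p under 0.05 there were 10 members, all higher in old cells, or 21.7% of 46, against 15.1% of all genes (8.52% higher). Limma voom, which weights values by read depth, gave 8 at that level. Old minus young was positive for 36 members (78.3%, against 54.1% of all genes) and negative for 10. The median was 0.16 (log2) beside 0.06 over all genes. Members can shift together within a library, so counts of signs are not independent. By role the median was 0.34 for the alpha ring (6 of 7 positive), 0.06 for the beta ring (6 of 7), 0.19 for the base (8 of 9), 0.13 for the lid (6 of 9 rows), 0.38 for the assembly chaperones (7 of 7) and −0.01 for the caps and inhibitor (2 of 5).

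Psmd8, a lid subunit, had the smallest p of all members. It stood at 4047, 3625 and 3989 normalized counts in young IL27RA−, 4248, 4067 and 3266 in young IL27RA+, 5357, 4671 and 4808 in old IL27RA− and 5197, 4775 and 5641 in old IL27RA+ libraries. Every old library lay above every young one, which held for 1.39% of all genes and for no other member. The difference was 0.39 ± 0.13 (log2, SE), and its 95% interval ran from 0.11 to 0.67 (limma adjusted p = 0.159, unadjusted 0.0089). The gene lies on chromosome 7 (29174188 to 29180701, minus strand, GRCm38).

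Psmd10, known as gankyrin, a chaperone that helps to assemble the base, stood at 1021, 599 and 248 normalized counts in young IL27RA−, 1278, 589 and 801 in young IL27RA+, 1188, 1187 and 957 in old IL27RA− and 1192, 1528 and 1281 in old IL27RA+ libraries. The young libraries ran from 248 to 1278 and overlapped the old ones. The age difference was 0.85 ± 0.31 (log2, SE), with a limma adjusted p of 0.207. Leaving out young IL27RA− replicate 1 gave 1.08 with an adjusted p of 0.0585, the smallest for any member under any setting tried.

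Psmg1, a chaperone of the alpha ring, stood at 1821, 2457 and 2876 normalized counts in young IL27RA−, 1955, 1694 and 1668 in young IL27RA+, 2843, 2502 and 2247 in old IL27RA− and 3239, 2407 and 2777 in old IL27RA+ libraries. The young IL27RA+ libraries were all below the old IL27RA+ ones, whereas the IL27RA− groups overlapped. Its age difference averaged 0.38 ± 0.16 (log2, SE; limma adjusted p = 0.289).

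Psmd4, the ubiquitin receptor of the base, stood at 3966, 5619 and 5098 normalized counts in young IL27RA−, 4797, 4321 and 3553 in young IL27RA+, 5691, 5904 and 6139 in old IL27RA− and 4891, 5106 and 6004 in old IL27RA+ libraries. Its young and old groups did not overlap within either fraction, and the averaged difference was 0.31 ± 0.14 (log2, SE; limma adjusted p = 0.307). Psmc5, an ATPase, stood at 942, 399 and 701 normalized counts in young IL27RA−, 923, 716 and 622 in young IL27RA+, 899, 987 and 1079 in old IL27RA− and 1028, 880.3 and 1112 in old IL27RA+ libraries. Its groups overlapped, and the difference was 0.52 ± 0.24 (adjusted p = 0.316, limma).

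Psme2, whose product forms the PA28 cap with that of Psme1, stood at 1060.3, 1303 and 724 normalized counts in young IL27RA−, 1257, 824 and 934 in young IL27RA+, 1295, 1225 and 1110.1 in old IL27RA− and 1509.9, 1703 and 1406 in old IL27RA+ libraries. The old IL27RA+ libraries were the 3 highest. The averaged age difference was 0.45 ± 0.20 (log2, SE; limma adjusted p = 0.306). Its partner Psme1 lies next to it on chromosome 14 (55578123 to 55581529, against 55587441 to 55591113 for Psme2, GRCm38) and had a difference of −0.18, with a 95% interval of −0.62 to 0.26.

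The age differences of the catalytic subunits Psmb5 and Psmb6 had wide intervals around 0. Psmb5 stood at 519, 119.5 and 147 normalized counts in young IL27RA−, 219, 142 and 369 in young IL27RA+, 166, 278 and 181 in old IL27RA− and 332, 223 and 240.2 in old IL27RA+ libraries. Young IL27RA− replicate 1 was the highest and its fellow libraries among the lowest, and the age difference was 0.08, with a 95% interval of −0.89 to 1.06. Psmb6 stood at 713, 205 and 261 in young IL27RA−, 434, 500.0 and 588 in young IL27RA+, 438, 381 and 358 in old IL27RA− and 498, 291 and 277 in old IL27RA+ libraries. The same library was again highest, and the difference was −0.17 (−0.91 to 0.57). The sign of both differences depended on single libraries.

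Psmb7 was steadier, at 1804, 1955 and 2508 normalized counts in young IL27RA−, 1992, 1976 and 2338 in young IL27RA+, 3423, 2389 and 2142 in old IL27RA− and 2851, 2407 and 2669 in old IL27RA+ libraries. The old IL27RA+ libraries were above the young IL27RA+ ones, and the IL27RA− groups overlapped. The averaged difference was 0.33, with a 95% interval of −0.02 to 0.68 (limma adjusted p = 0.37). Psmb7 overlaps exons of Nek6 on the opposite strand, 1 of 12 members that share exonic bases with another gene (10 on the opposite strand, 3 on the same). Whether strand was used in counting is not given.

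The remaining alpha subunits had positive age differences except Psma3. Over the 12 libraries Psma2 ran from 666 to 1574 normalized counts, Psma3 from 821 to 1818 and Psma4 from 2323 to 4354, with age differences of 0.08, −0.01 and 0.24 (log2). Psma5 ran from 939 to 2016, Psma6 from 456 to 1061 and Psma7 from 1359.7 to 2743, with differences of 0.40, 0.40 and 0.34. The beta subunits without a proteolytic site had age differences between 0.01 and 0.11. Psmb1 (215 to 611 normalized counts) had 0.01, Psmb2 0.11, Psmb3 (316 to 752) 0.03 and Psmb4 0.06.

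All 6 ATPases, which form the unfolding ring of the base, had positive age differences. Psmc1 ran from 981 to 3069 normalized counts, Psmc3 from 868 to 2293 and Psmc6 from 807 to 2234, with differences of 0.49, 0.19 and 0.01. Psmc2 had 0.13 and Psmc4 0.04. Psmd2, which docks ubiquitin-binding shuttles, ran from 1032 to 4136 with a difference of −0.09, and Psmd1 had 0.20.

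The lid subunits had age differences of both signs. Psmd14 ran from 2351 to 5419.6 normalized counts and its partner Psmd7 from 1568 to 3237, with age differences of 0.42 and 0.35. The scaffold subunits Psmd3 (1648 to 3187 normalized counts), Psmd6 (334 to 622), Psmd11 (593 to 952), Psmd12 (551 to 1238) and Psmd13 had 0.04, −0.23, −0.08, −0.32 and 0.13. Psmd12 was the most negative of all members, and its 95% interval of −0.80 to 0.15 held 0.

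Among the base chaperones, Psmd5 ran from 789.7 to 2666 normalized counts and Psmd9 from 645 to 1751, with age differences of 0.41 and 0.47. The core chaperones Psmg2, Psmg3 (324 to 625) and Psmg4 (151 to 510.3), of which the last pair act as a dimer, had 0.19, 0.01 and 0.02. The highest Psmg4 value belonged to old IL27RA− replicate 1. Of the caps, the nuclear Psme3 (1321 to 3752) had −0.24 and Psme4 (578 to 2399) 0.38, while Psmf1 (638 to 1496), the gene of the inhibitor PI31, had −0.01. Psmc3ip ran from 30.8 to 132 with a difference of −0.07.

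**Figure D4:**
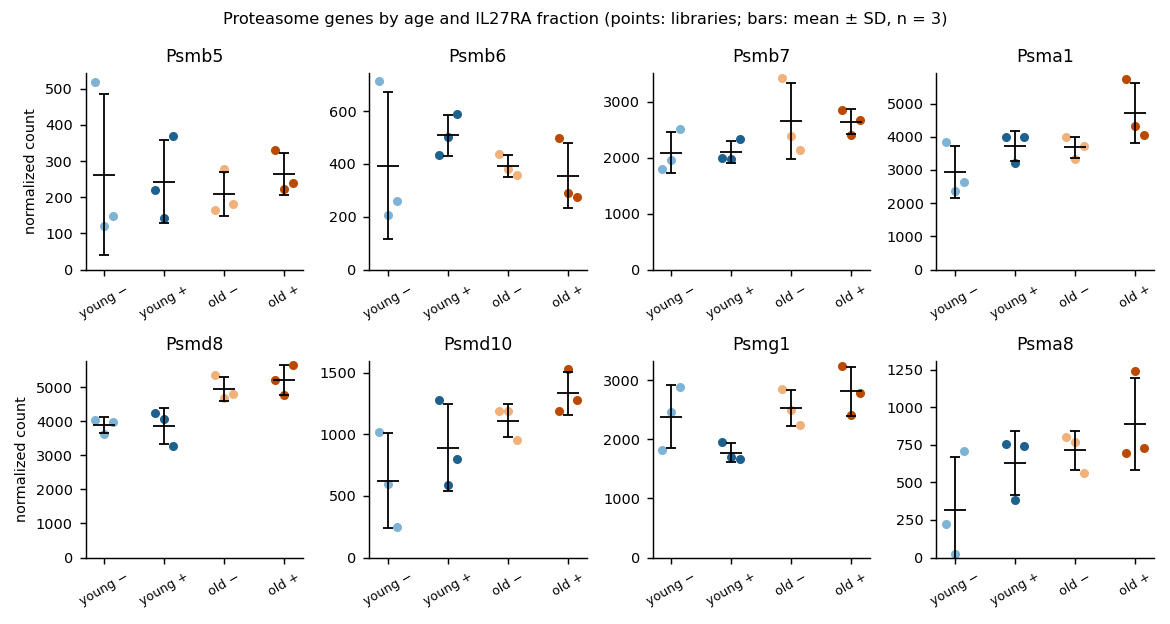
Normalized counts of 8 proteasome genes in the 4 groups; points are libraries and bars mean ± SD (n = 3). All 6 old libraries lie above all 6 young ones for Psmd8, while Psmb5 and Psmb6 are set apart by 1 young IL27RA− library.

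Between the ages within IL27RA− cells, 0 of 46 members were called by limma, where 0.672% of all genes were, and 4 had an unadjusted p under 0.05 (4 by voom, 12.5% of all genes). The members' median difference was 0.19 (log2), beside 0.04 for all genes, and 34 were positive (73.9%, against 52.1% of all genes). The old and young libraries did not overlap for 5 members, all higher in old cells (Psma4, Psma7, Psmd4, Psmd8 and Psmd9), which is 10.9% of 46, against 7.8% of all genes. The smallest p belonged to Psma8, at 226, 21.5 and 706 normalized counts in young IL27RA− and 803, 770.1 and 565 in old IL27RA− libraries, with 758, 385 and 741 in young and 693, 1242 and 728 in old IL27RA+ cells. The young IL27RA− libraries reach from the lowest value of all into the old range. The difference was 2.20 ± 0.87 (log2, SE; limma adjusted p = 0.311) and lay between 0.82 and 3.30 with 1 library left out. Averaged over the fractions, the age difference of Psma8 was 1.36 (limma adjusted p = 0.314), the largest of any member. It is among the 10 members with an unadjusted p under 0.05 in that comparison.

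Within IL27RA+ cells, again 0 of 46 members were called (0.421% of all genes), and 5 had an unadjusted p under 0.05 (4 by voom, 8.89% of all genes). The median difference was 0.22 beside 0.05. The groups did not overlap for 11 members that were higher in old cells, or 23.9%, where 9.11% of all genes were. These were Psma1, Psma5, Psmb7, Psmc1, Psmc2, Psmd4, Psmd5, Psmd8, Psme2, Psmg1 and the second identifier of Psmd14. Another 2, the PA28 subunit Psme1 and the core chaperone Psmg4, were lower without overlap (7.8% of all genes). Psmg1 had the smallest p, with a difference of 0.66 ± 0.23 (log2, SE; limma adjusted p = 0.388). An exact two-sided permutation test gave p = 0.1, the smallest that 3 against 3 libraries allow. Both age comparisons within a fraction enter the averaged one, so they are not further evidence for it.

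For the sorted fractions, the design asks whether IL27RA+ and IL27RA− cells differ. Averaged over the ages, 0 of 46 members were called by limma, against 0.19% of all genes. Of the members 1 had an unadjusted p under 0.05 (2 by voom, 7.97% of all genes). IL27RA+ minus IL27RA− was positive for 31 members (67.4%, against 54.1% of all genes) and negative for 15. The members' median was 0.11 (log2) beside 0.05 for all genes. The difference was positive for 13 of 14 core subunits. Its median was 0.26 for the alpha ring and 0.12 for the beta ring, beside 0.11 for the lid and 0.12 for the base. The chaperones had a median of −0.06 and the caps 0.00.

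Psma1, of the alpha ring, was the member under 0.05. It stood at 3837, 2353 and 2623 normalized counts in young IL27RA−, 3991, 3199 and 3980.4 in young IL27RA+, 3989, 3338 and 3711 in old IL27RA− and 5733, 4311 and 4063 in old IL27RA+ libraries. The old IL27RA+ libraries were all above the old IL27RA− ones, and the young fractions overlapped. The averaged difference was 0.35 ± 0.16 (log2, SE), with a limma adjusted p of 0.618. For age its difference was 0.34 ± 0.16 (adjusted p = 0.340, limma), the smallest p of the alpha ring there too.

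The beta subunit Psmb2, one of the steadiest members, stood at 2671, 2946 and 2225 normalized counts in young IL27RA−, 3077, 3109 and 2398 in young IL27RA+, 3089, 2835 and 2557 in old IL27RA− and 3401, 3109 and 2716 in old IL27RA+ libraries. All 4 groups overlapped, and the averaged IL27RA difference was 0.12, with a 95% interval of −0.19 to 0.44. The scaffold subunit Psmd1 stood at 1468, 1089.9 and 1007 in young IL27RA−, 1785, 1458 and 1327 in young IL27RA+, 1425, 1722 and 1309.7 in old IL27RA− and 1506, 1509 and 1734 in old IL27RA+ libraries. Its fractions overlapped at both ages, with a difference of 0.23 (−0.14 to 0.61).

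The ATPase Psmc4 stood at 1412, 738 and 1196 normalized counts in young IL27RA−, 1139, 1728 and 1479 in young IL27RA+, 1213, 1216 and 1292 in old IL27RA− and 1274, 1304 and 1373 in old IL27RA+ libraries. Young IL27RA− replicate 2 stands below the rest, and the IL27RA difference was 0.25 (−0.18 to 0.67). The lid subunit Psmd13 went the other way, at 1297, 2199.8 and 1327 in young IL27RA−, 1288, 874 and 1211 in young IL27RA+, 1344, 1415 and 1698 in old IL27RA− and 1549, 894 and 1955 in old IL27RA+ libraries. Its young IL27RA+ libraries were all below the young IL27RA− ones, and the averaged difference was −0.29 (−0.78 to 0.20). Psmd13 overlaps Sirt3 on the opposite strand.

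The core chaperone Psmg2, on chromosome 18, stood at 318, 449 and 30.3 normalized counts in young IL27RA−, 188, 357 and 352 in young IL27RA+, 152, 242 and 256 in old IL27RA− and 359, 322 and 213 in old IL27RA+ libraries. A single library, young IL27RA− replicate 3, stands far below the others, and the difference of 0.63 had an interval of −0.61 to 1.88. Psmd10 (0.46, interval −0.20 to 1.13) and Psme2 (0.16, −0.26 to 0.59) had the smallest p of the base chaperones and the caps here as well.

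In young cells, 0 of 46 members were called between the fractions (limma, 0.0204% of all genes), and 3 had an unadjusted p under 0.05 (3 by voom, 8.21% of all genes). These were Psma8 (1.97 ± 0.87 log2, SE; limma adjusted p = 0.586) and the alpha subunits Psma4 (0.46) and Psma2 (0.61). The fractions did not overlap for Psma2 and Psma4, both higher in IL27RA+ cells (5.05% of all genes), and for Psmd13, lower (4.73% of all genes). The members' median difference was 0.10 and became 0.29 without young IL27RA− replicate 1 and −0.03 without replicate 2 of that group. For Psma8 the difference lay between 0.59 and 3.07 with 1 library left out.

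In old cells, 0 of 46 members were called (limma, 0.0272% of all genes), and none had an unadjusted p under 0.05 with either tool (5.38% of all genes by limma). The median was 0.12, and 36 members were positive (78.3%, against 51.9% of all genes). The fractions did not overlap for 5 members, all higher in IL27RA+ cells (7.25% of all genes), namely Psma1, Psmc6, Psmd10, Psmd14 and Psme2. In the same comparison 20 of 20 cell cycle genes were positive, with a median of 3.84 (log2), and their part in the members' values was not tested. The ATPase Psmc2 had the smallest p (difference 0.55 ± 0.37, SE, adjusted p = 1 by limma). It stood at 801, 524 and 889.5 normalized counts in young IL27RA−, 499, 358 and 586 in young IL27RA+, 389, 646 and 584 in old IL27RA− and 891, 838 and 616 in old IL27RA+ libraries.

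**Figure D5:**
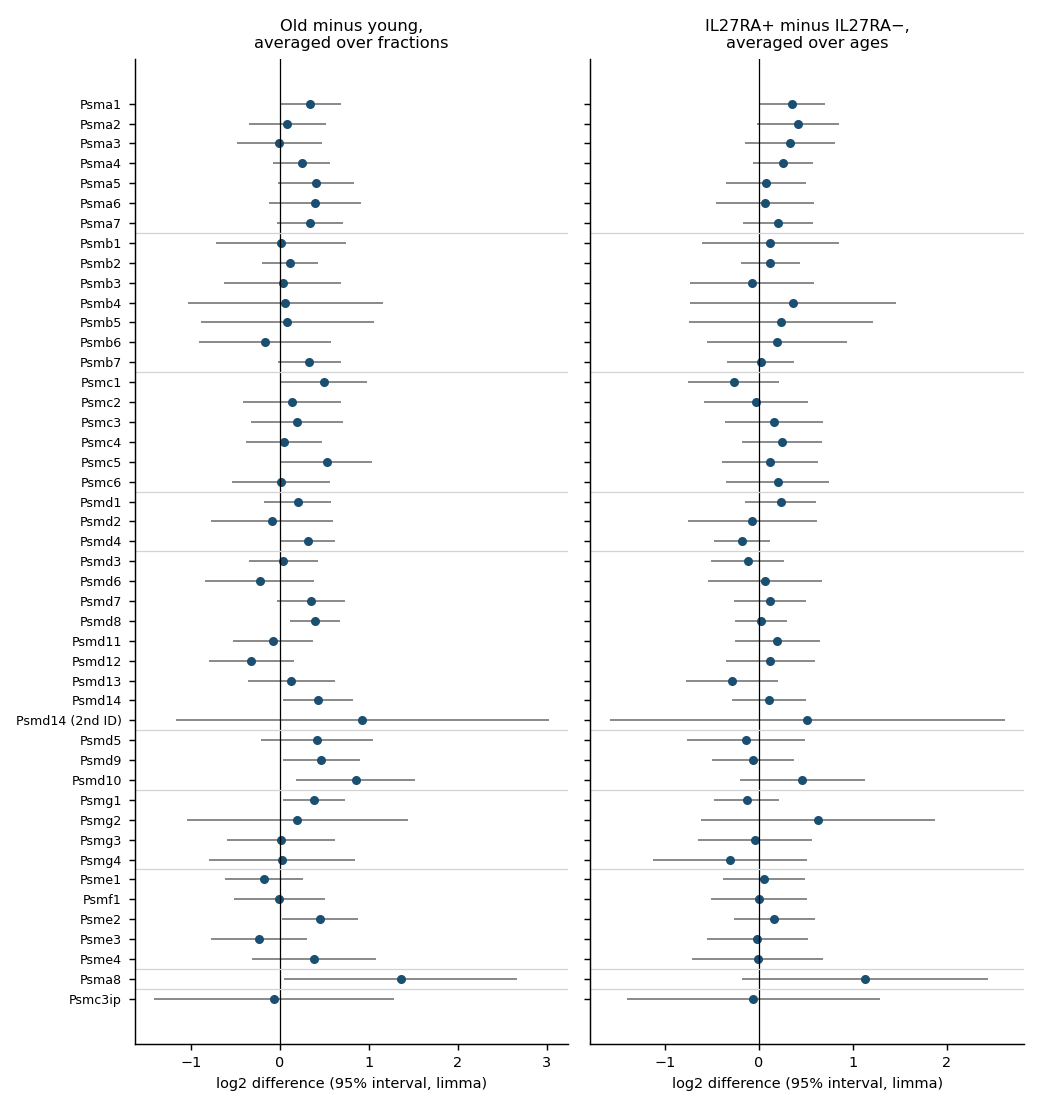
Log2 differences of the 46 tested members with 95% intervals from limma, for old minus young averaged over the fractions (left) and IL27RA+ minus IL27RA− averaged over the ages (right), in the order of roles. Most points lie between −0.5 and 0.5, and Psmd8 (0.39) and Psmd10 (0.85) lie to the right of 0 on the left side. The largest age difference is that of Psma8 (1.36), whose level is uncertain.

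Whether the age difference depended on the fraction was tested as an interaction. Here 0 of 46 members were called, as were 0.0% of all genes, and 1 had an unadjusted p under 0.05 (1 by voom, 5.18% of all genes by limma). This was Psmc2, whose age difference was −0.45 in IL27RA− and 0.71 in IL27RA+ cells, an interaction of 1.16 ± 0.52 (log2, SE; limma adjusted p = 0.941). Its means were higher in young IL27RA− and old IL27RA+ than in the other groups. Old IL27RA+ libraries lay above the young IL27RA+ ones but overlapped the old IL27RA− ones. Young IL27RA− libraries overlapped both groups of lower mean. Over the members the median interaction was −0.01 and became −0.21 without young IL27RA− replicate 1. The alpha ring had a median of −0.39 and the base ATPases 0.25.

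The precision sets how large an age or IL27RA effect could be missed. In the averaged age comparison the 95% interval lay within −1 and 1 (log2), thus within 2-fold, for 36 of 46 members, and in the averaged IL27RA comparison for 38. Over all genes this held for 5101 and 5695 of 14723. The 10 members whose age interval reached further were Psma8, Psmb4, Psmb5, Psmc5, Psmc3ip, Psmd5, Psmd10, Psme4, Psmg2 and the second identifier of Psmd14. For the last of these, with 111 reads in all, it ran from −1.17 to 3.02.

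The members with the nuclear respiratory factor element had a median age difference of 0.24 (7 genes) and those without it 0.10 (30 tested genes with a promoter entry). For the IL27RA comparison the medians were 0.25 and 0.04. For TGACNNNGC they were 0.05 with (6 genes) and 0.13 without it (31 genes) by age, and 0.16 and 0.06 by IL27RA. For CCAAT they were 0.31 (13 genes) and 0.07 (24 genes) by age, and 0.06 and 0.07 by IL27RA. These medians are descriptions without a test, and none of the genes was called.

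Other genes of the pathway gave the same count of calls. Of 12 further proteasome genes 11 were measured, and 0 were called in any of the 7 comparisons. The same held for 0 of 8 genes for activation of the proteasome genes and 0 of 13 for ubiquitin supply and substrate delivery. Over all genes at most 1.88% were called in a comparison. At an unadjusted p under 0.05 in the averaged age comparison, 1 of 11, 0 of 8 and 1 of 13 were found, where 15.1% of all genes were. The first was Zfand5, a zinc finger protein known to stimulate the proteasome, at 4466, 3241 and 5448 normalized counts in young IL27RA−, 4367, 4149.8 and 4141 in young IL27RA+, 3966, 9203 and 10823 in old IL27RA− and 6850.0, 7148 and 8316 in old IL27RA+ libraries. All old libraries but IL27RA− replicate 1 were above the young ones, and the difference was 0.79 ± 0.22 (log2, SE; limma adjusted p = 0.0844). The other was the polyubiquitin gene Ubb, with an age difference of 0.65 ± 0.23 (adjusted p = 0.192, limma), and Ufd1l, of the substrate-delivering p97 complex, had 0.39 (adjusted p = 0.414, limma).

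Pomp, the maturation factor of the core, had an age difference of 0.40 ± 0.22 (log2, SE; limma adjusted p = 0.413), close to that of the alpha ring. The level of Nfe2l1 itself, in normalized counts with the SD over 3 libraries, was 1551 ± 189 in young IL27RA−, 1437 ± 418 in young IL27RA+, 1861 ± 157 in old IL27RA− and 1298 ± 499 in old IL27RA+ cells. No difference of Nfe2l1 passed the test, with an age difference of 0.05 (adjusted p = 0.945, limma) and an IL27RA difference of −0.36 (adjusted p = 0.714, limma). Vcp, the p97 ATPase, had an IL27RA difference of −0.33 (adjusted p = 0.672, limma).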

How the data were processed

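RNA of 12 libraries was measured by sequencing, 3 in each of 4 groups. Each deposited value is on a log2 scale: judged from the values, the authors divided reads per gene by a size factor of the library, added a pseudocount of 1 and took log2. Undoing these steps returned whole reads, to within 0.001 reads, in 100% of cases. DESeq2, HTSeq, TopHat2 2.1.1 and FastQC 0.11.5 are listed, without their roles, per the submitters' processing notes. The sources used here give neither the genome build nor the strand setting. Of 20473 lines, 1 damaged line (Mtbp) and 15 repeats with identical values were left out. The damaged line also puts a stray deposited value of another unit in 1 column, which was not used. By identifier 92.9% of the genes, and 46 of 47 members, matched GENCODE vM21 (GRCm38), which gave lengths, positions and exon overlaps.

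Differences were tested on the log2 values in R 4.3.3 by limma 3.58.1, allowing for a variance trend, 1 mean per group, 8 residual and 6.62 prior degrees of freedom, adjustment over 14723 genes and a threshold of 0.05. It was also run on simulated data, with genes drawn independently and changes larger than most differences reported here. Its power for smaller or shared shifts was thus not tested. Low values compress differences on this scale. Levels per kilobase use the longest principal transcript, and Psmb9 (2 identifiers) was matched by symbol. The members and lists were chosen with earlier results of these data known. Values in all libraries were printed for the catalytic subunits, the smallest p of each comparison and of each role list of at least 3 in the averaged comparisons. Of the other lists the 2 genes of smallest p, Nfe2l1 and Pomp were named. Alternatives varied the pseudocount, the filter, the scaling, the libraries and groups fitted, the weights and the replicate block. Replicate numbers were not used to pair the samples, and whether fractions with the same number share mice is not stated.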

Additional observations from a re-analysis of the deposited data

How the results depend on the processing

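In each of the 7 comparisons, 0 members were called of the 46 tested and under all 21 alternatives (44 members tested with the stricter filter, 47 without one, 46 otherwise), with the smallest limma adjusted p at 0.0585 (Psmd10). With 1 library left out, the members' median difference (log2) ranged from 0.11 to 0.28 for age averaged over fractions, 0.12 to 0.36 within IL27RA− and 0.12 to 0.26 within IL27RA+ cells. For IL27RA it ranged from 0.02 to 0.18 averaged over ages, −0.033 to 0.29 in young and 0.07 to 0.16 in old cells, and for the interaction from −0.21 to 0.12. The moves to 0.29 in young cells and to −0.21 in the interaction came without young IL27RA− replicate 1, and the cause was not tested. Signs turned for catalytic subunits whose main differences were small. With 1 library left out the Psmb5 age difference ran from −0.12 to 0.41, that of Psmb6 from −0.35 to 0.10, and the Psmb7 IL27RA difference from −0.049 to 0.12. Without young IL27RA− replicate 2 and old IL27RA− replicate 1, the libraries with the lowest weights (an alternative chosen after seeing the data), Psmb5 gave −0.046 for age and −0.038 for IL27RA, and the members' medians were 0.18 for averaged age, 0.04 for averaged IL27RA and −0.03 for IL27RA in young cells. Of the values on single genes, 14 reversed. Of the remaining values, 286 on counts or medians and 254 on single genes kept their direction or moved by less than the spread between replicates, which was 0.18 for the members' median. That spread exceeds most of the main medians, and the counts of calls were all 0. A median could thus change sign and still be counted here, as for IL27RA in young cells (0.10 to −0.03).

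With the replicate block, 0 of 46 members were called in each comparison, and the median age difference stayed at 0.16. Same-numbered libraries of different groups correlated in their deviations with r between −0.054 and 0.107 (median 0.0097), and other pairs between −0.068 and 0.071. Between the 2 fractions of an age, same-numbered libraries had r from 0.0038 to 0.107, all positive. Differently numbered ones had r from −0.068 to 0.038. The numbers were taken as names, but sharing of mice between fractions of an age was not settled. A block by number within each age was not fitted. The planned quasi-likelihood count test and voom with another scaling were not run, because the deposited unit is log2. Voom on reads recovered with the deposited size factors, chosen after seeing the data, took their place. The 3 libraries a group limit what is detectable: the median half-width of a member's 95% interval was 0.50 (log2) in the averaged comparisons, 0.71 within a fraction or age and 1.00 for the interaction.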
